A study of Fragaria vesca with 12 samples.

Results

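The gene FvH4_3g20030, annotated in the deposited tables as a metallothionein-like protein of Fragaria vesca, was the most abundant transcript of the fruit by a wide margin. It is 1 of 21927 genes in the deposited expression table and 1 of 5 whose description holds the word metallothionein. It was picked by its identifier because of its input level and its share of the summed level in each library, so those values are given here as a description and carry no test. The samples were fruits of this diploid strawberry, taken 27 days post anthesis (DPA), in which mRNA and its N6-methyladenosine (m6A) were profiled; m6A is adenosine with a methyl group on its base. Fruit came from wild-type plants (WT) and from the Fvalkbh10b mutant (allele not given in the sources used here). Input mRNA and mRNA precipitated with an antibody against m6A (IP) made 4 groups of 3 biological replicates, 12 libraries in all. Input levels are FPKM, fragment counts scaled to the exon length of the gene and to the mapped fragments of the library, in each of 6 libraries, and the IP libraries entered only as lists of enriched regions (peaks).

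Metallothioneins are short, cysteine-rich proteins whose thiol groups bind copper, zinc and other metal ions. In plants they are known for buffering metals in the cytosol and for scavenging reactive oxygen, and metallothionein-like transcripts are known to be abundant in ripening fleshy fruits of several species. The modified base m6A is read by proteins that affect splicing, stability and translation of the transcript, and ALKBH10B is an ALKB-type dioxygenase, a kind of enzyme known in other species to demethylate RNA.

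Read numbers are not listed with the FPKM, and sequencing depth is therefore unknown. No gene description names ALKBH10B. The only gene annotated with RNA N6-methyladenosine dioxygenase activity, FvH4_2g24110, averaged 29.9 ± 1.28 FPKM (SD, n = 3) among the WT libraries and 4.31 ± 0.893 FPKM among those of the mutant; the labels do not say whether it is the mutated gene. Marker lists of the tissue moved with genotype. Genes of ripening receptacle (the fleshy part: expansins, pectate lyases, polygalacturonases, Fra a allergens, pigment enzymes) were detected at a mean of at least 1 FPKM in 38 of 82 cases, with 11 higher and 22 lower in the mutant by limma, 1 member was at 0 in all libraries, and their summed level was 10651 to 10949 FPKM in the WT libraries and 1992 to 2052 FPKM in the mutant libraries. Markers of green tissue (photosystem and chlorophyll-binding genes) were detected in 30 of 37 cases, of which 30 were higher in the mutant (limma, adjusted p under 0.05, where 48.3% of the 15571 genes tested were higher and 19.1% lower), and summed to 288 to 304 FPKM in WT and 2818 to 3013 FPKM in the mutant. Achene and seed markers were detected in 22 of 36 cases, with 6 higher and 13 lower by limma, and summed to 708 to 723 FPKM in WT and 469.6 to 503 FPKM in the mutant. No member of these last 2 lists was at 0 in all 6 libraries. The part of these differences in the results that follow was not tested. In whole fruit, a change in the number of cells of a type and a change in RNA per cell cannot be told apart.

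FvH4_3g20030 lies on chromosome 3 from 13176492 to 13177331 on the plus strand, in the coordinates of the authors' tables (build not given in the sources used here). Its span is 840 bases. The 3 WT input libraries had 56889, 56286 and 57559 FPKM, against 102370.2, 109174 and 121589.9 FPKM for the mutant. The WT libraries were nearly identical and every mutant library lay above every WT library; among the 15571 genes that averaged 1 FPKM or more, this separation was seen in 50.9%. The means were 56911 ± 637 FPKM for WT and 111045 ± 9745 FPKM for the mutant (SD, n = 3 each), a ratio of 1.95. In the authors' deposited table the log2 change is 0.96 and the gene is marked as up but not as significant. In the authors' deposited table the mark of significance is on 5154 genes, each with an absolute log2 change of at least 1, and FvH4_3g20030 lies just under that limit.

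As a share of the summed FPKM of all genes, which weights transcripts by number rather than by length, the gene held 12.1%, 12.02% and 12.3% in the WT libraries. In the mutant libraries it held 20.4%, 21.4% and 23.3%. About 1 in every 8 transcripts in WT and more than 1 in every 5 in the mutant were thus assigned to this single gene. The mean share was 12.2% ± 0.154 for WT and 21.7% ± 1.44 for the mutant (SD, n = 3). The median of the 15571 genes lay between 7.66 and 9.56 FPKM over the 6 libraries, and the level of FvH4_3g20030 was 7198 to 7427 times that median in WT and 10925 to 12719 times in the mutant.

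**Figure D1:**
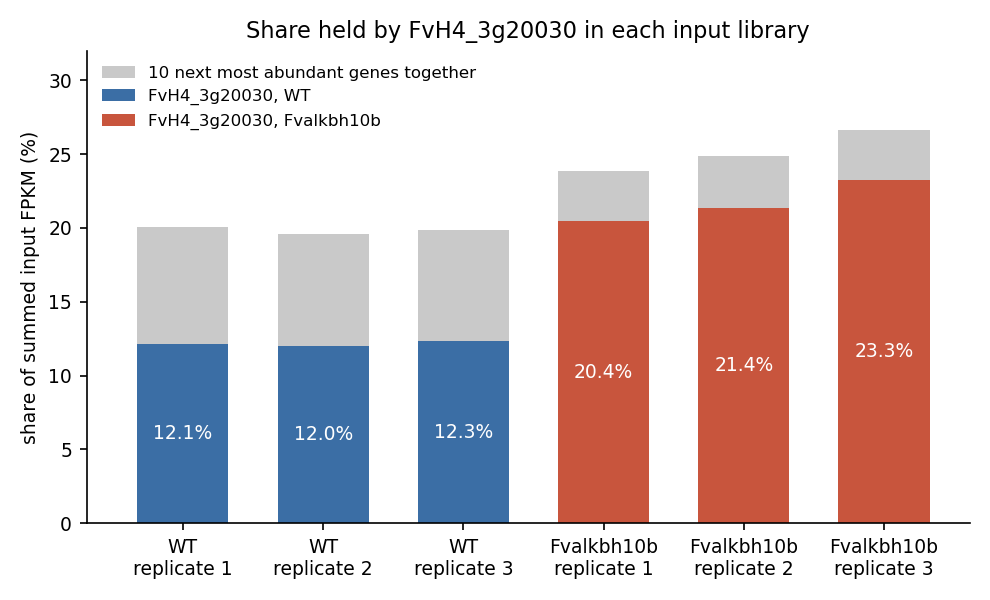
Share of the summed input FPKM (%, vertical axis) in each of the 6 input libraries (horizontal axis), as bars that start at 0; the coloured part is FvH4_3g20030 and the grey part the 10 next most abundant genes together. The metallothionein-like gene holds 12.02% to 12.3% in WT and 20.4% to 23.3% in Fvalkbh10b, more than the grey part in every library.

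The share of fragments was smaller than the share of transcripts, as holds for any gene shorter than the average transcript. By the definition of FPKM, a gene whose exons filled all 840 bases of this span would account for 4.78% ± 0.0535 of the mapped fragments for WT and 9.33% ± 0.819 for the mutant (SD, n = 3). These are upper limits, since exon length cannot exceed the span and is not listed in the files. Such a share lowers the FPKM of every other gene, more in the mutant than in WT. At the upper limit this offset is 0.07 log2 units. The summed FPKM of all other genes was 411460.3 ± 1645 in WT and 400299.9 ± 1706 in the mutant, while the summed FPKM of all genes was 468371 ± 1248 and 511345 ± 10946 (SD, n = 3). The gain of 54134 FPKM at FvH4_3g20030 was therefore larger than the gain of the whole sum, 42973 FPKM.

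The 3 mutant libraries spread more than the WT libraries. The coefficient of variation of FvH4_3g20030 was 1.12% in WT and 8.78% in the mutant. Of 693 genes that averaged 100 FPKM or more, the median coefficient was 3.07% in WT and 3.71% in the mutant. Among the mutant libraries, 57 genes (8.23%), FvH4_3g20030 itself included, varied as much as this gene or more. Mutant replicate 3 was the highest library for FvH4_3g20030, for FvH4_6g13710 and for FvH4_3g36020, with log2 ratios to mutant replicate 1 of 0.25, 0.37 and 0.43. It was not the highest for the other metallothionein genes, FvH4_3g36040 and FvH4_3g36030, whose ratios were -0.04 and -0.44. The median of that ratio over the 693 genes was -0.02, and 31 of them (4.47%), itself included, reached the ratio of FvH4_3g20030. Among the 84 of these genes with a span of up to 1000 bases, 10 did (11.9%), against 21 of 609 longer genes (3.45%). FvH4_3g20030, FvH4_6g13710 and FvH4_3g36020 are among those 10. The log2 ratio between genotypes was 0.96 with all libraries and 0.89 without mutant replicate 3.

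No other gene came near this level. The next in order was the lipid transfer protein EARLI 1 gene (FvH4_5g18321), which encodes a small secreted protein of a lipid-binding family, with 17683, 15601 and 15473 FPKM in WT and 6003, 6362 and 5897 FPKM in the mutant. It ranked after FvH4_3g20030 in all 6 libraries. The metallothionein-like gene exceeded it 3.22- to 3.72-fold in the WT libraries and 17.1- to 20.6-fold in the mutant libraries. EARLI 1 was lower in the mutant by limma, with a log2 change of -1.41 ± 0.06 (SE, adjusted p = 1.17e-08), lower in 3 of 3 mutant libraries. Quantile normalization sets equal ranks to equal values and so removed that call (adjusted p = 1).

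The 9 genes after EARLI 1 had means over both genotypes between 1305 and 2329 FPKM. They were a hypothetical protein gene (FvH4_6g41500), the cytosolic glyceraldehyde-3-phosphate dehydrogenase GAPC2 of glycolysis (FvH4_4g24420), an H-type thioredoxin, a small disulfide reductase (FvH4_2g39210), MLP-like protein 28 (FvH4_4g32700), the metallothionein-like MET1 gene (FvH4_6g13710), a vinorine synthase-like gene (FvH4_7g18570), probable pectate lyase 8, a pectin-cleaving enzyme (FvH4_4g05760), the translationally-controlled tumor protein homolog (FvH4_4g18300) and an uncharacterized gene (FvH4_1g09300). All 10 next most abundant genes together held 7.68% ± 0.223 of the summed FPKM in WT but 3.43% ± 0.0640 (SD, n = 3) in the mutant, in both cases less than FvH4_3g20030 alone. Of the 10 genes, 4 were higher and 6 lower in the mutant by limma, beside 48.3% and 19.1% of all genes tested. The 10 were picked by a mean over both genotypes, so a gene high in a single genotype could enter. The summed shares, these counts and the changes named next depend on that choice and are a description. By ratio, the greatest falls were those of the vinorine synthase-like gene (FvH4_7g18570), from 3318 ± 26.6 to 1.62 ± 0.343 FPKM, of MLP-like protein 28 (FvH4_4g32700), from 3591 ± 261 to 112 ± 6.45 FPKM, and of pectate lyase 8 (FvH4_4g05760), from 2729.7 ± 54.7 to 95.9 ± 4.10 FPKM. MET1 and the tumor protein homolog were the pair that rose by more than 2-fold, the latter from 606 ± 12.6 to 2006 ± 61.7 FPKM (SD, n = 3). GAPC2 differed least, with 1947 ± 84.2 FPKM in WT and 2129 ± 55.8 FPKM in the mutant (log2 change 0.13 ± 0.04 SE, limma adjusted p = 0.0154). That call was lost without WT replicate 2 (0.0624) or 3 (0.0698), without mutant replicate 1 (0.0531) or 2 (0.0639) and with no filter on low values (0.0640), and turned to lower after rescaling to one median. The hypothetical protein gene was no longer called after that rescaling (adjusted p = 0.105).

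**Figure D2:**
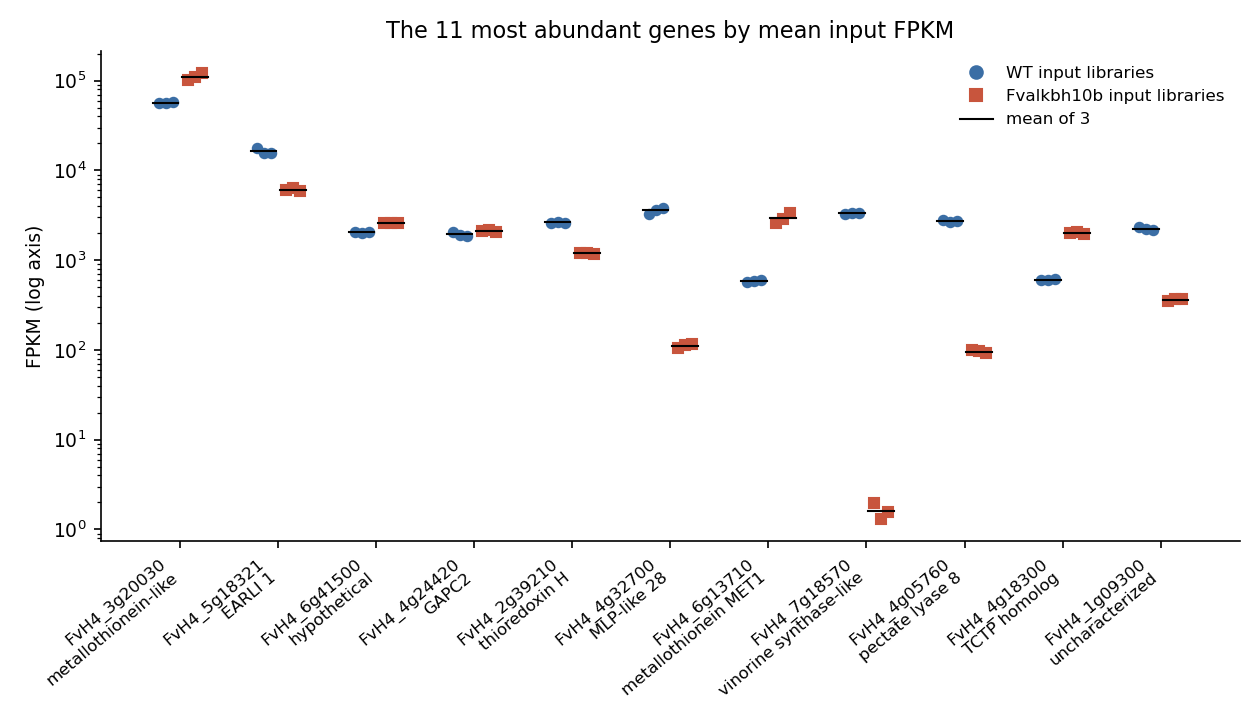
Input FPKM on a log axis for the 11 genes with the highest mean over the 6 input libraries, ordered by that mean; circles are the 3 WT libraries, squares the 3 Fvalkbh10b libraries and black lines their means. FvH4_3g20030 stands above every other gene in all libraries, and it and MET1 are higher in Fvalkbh10b while EARLI 1 is lower.

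The other 4 metallothionein genes were all higher in the mutant. These genes were taken by their description, though with earlier results of these data known. Of 4 tested, 4 rose and 0 fell (limma, adjusted p under 0.05), where the background was 48.3% higher and 19.1% lower. FvH4_3g36030, at a mean of 0.90 FPKM in WT, passed the filter of 1 FPKM only through its mutant level. All 4 calls held under every scaling, filter, pseudocount and left-out library tried. Members of one family can share reads where their sequences are close, which could not be checked here, and the level of any single copy is uncertain to that extent.

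FvH4_6g13710, described as metallothionein-like protein type 2 MET1, lies on chromosome 6 from 8353349 to 8354035 on the minus strand. Its level was 575, 593 and 594 FPKM in WT and 2606, 2859 and 3365 FPKM in the mutant. The groups were far apart, with a 5.01-fold ratio of means. The log2 change on the log2(FPKM + 1) scale was 2.32 ± 0.08 (SE, limma adjusted p = 3.19e-09), higher in 3 of 3 mutant libraries. FvH4_3g36020, metallothionein-like protein 1, had nearly the same WT level, 565, 599 and 623 FPKM, and 953, 1039 and 1287 FPKM in the mutant. Its groups did not overlap either, and its ratio of means was 1.83, with a log2 change of 0.86 ± 0.09 (SE, limma adjusted p = 2.09e-05). That log2 change was 0.58 after rescaling to one median and 1.34 after quantile normalization.

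Both remaining genes were near the lower end of detection in WT. FvH4_3g36040, metallothionein-like protein 1B, had 1.96, 2.88 and 2.74 FPKM in WT and 88.9, 101 and 86.5 FPKM in the mutant, a log2 change of 4.73 ± 0.11 (SE, limma adjusted p = 2.51e-10). FvH4_3g36030, described as a putative plant metallothionein of family 15, had listed values of 0, 1.08 and 1.62 FPKM for WT, and for the mutant of 39.1, 21.7 and 28.9 FPKM. Its log2 change was 4.10 ± 0.33 (SE, limma adjusted p = 2.27e-06). A listed 0 may be a failed estimate of the level, and the size of this change depends on the pseudocount, at 5.63 with 0.1 in place of 1.

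These last 3 genes stand side by side. FvH4_3g36020, FvH4_3g36030 and FvH4_3g36040 fill chromosome 3 from 30924801 to 30930109 on the plus strand, 5309 bases, with gaps of 1314 and 1619 bases between them and no other gene of the table in between. FvH4_3g20030 is on the same chromosome, 17747469 bases away. In WT the levels within this row differed widely, with 596 ± 29.1 FPKM for FvH4_3g36020, 0.90 ± 0.825 for FvH4_3g36030 and 2.53 ± 0.496 for FvH4_3g36040 (SD, n = 3). In WT the ranges of the middle gene and the last do not overlap, at up to 1.62 and from 1.96 FPKM, but lie within 0.4 FPKM of each other. In the order of WT levels, FvH4_3g20030 was followed by FvH4_3g36020 and MET1, whose WT ranges overlap. In the mutant MET1 was higher than FvH4_3g36020 in every library.

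The 4 genes together were small beside the leading one. Their summed level was 1186 ± 40.6 FPKM for WT and 4159 ± 553 FPKM for the mutant (SD, n = 3), a ratio of 3.51. FvH4_3g20030 made up 98.0% ± 0.0644 of the FPKM of the 5 genes in WT and 96.4% ± 0.154 in the mutant. With all 5, metallothionein transcripts held 12.4% ± 0.159 of the summed FPKM in WT and 22.5% ± 1.53 in the mutant.

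**Figure D3:**
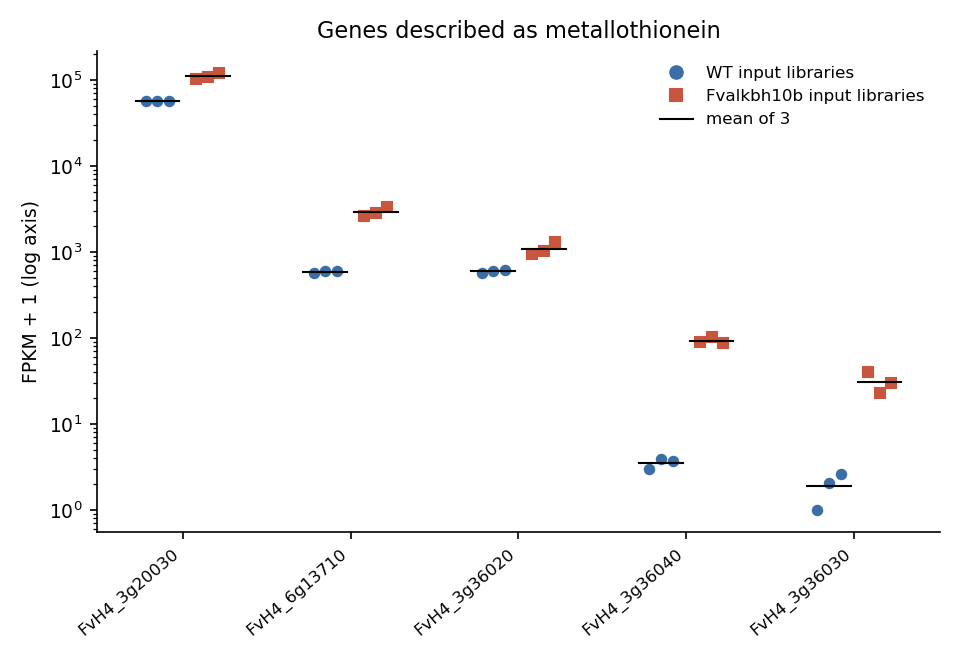
Input FPKM + 1 on a log axis for the 5 genes described as metallothionein; circles are the 3 WT libraries, squares the 3 Fvalkbh10b libraries and black lines their means. Every gene is higher in every Fvalkbh10b library than in any WT library, from FvH4_3g20030 at the top down to FvH4_3g36030, which was listed at 0 in 1 WT library.

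The wider set of metal-handling genes did not share this one-way difference. The list of 85 genes, taken by description, holds transporters of copper, zinc and iron, metal ATPases, metal chaperones, ferritins, which store iron, and superoxide dismutases. Of 68 members that passed the filter on low values, 31 rose (45.6%), 16 fell (23.5%) and 21 did not pass the test, beside 48.3% and 19.1% of all genes tested, so the shares are near the background. Some of those that rose, such as FvH4_3g12891 at a mean of 0.03 FPKM in WT, passed this filter only through their mutant level. The same filter was applied to all genes tested. With no filter, 31 members rose and 17 fell. Within the list, the ferric reduction oxidase genes also went one way, with 5 tested, 5 higher and 0 lower. Not all of these calls held after rescaling to one median or quantile normalization. The other subgroups counted had calls in both directions. Rescaling all libraries to one median gave 19 higher and 24 lower members, and quantile normalization gave 16 and 22, so which direction prevailed changed with the scaling; no member was called in opposite directions. The median log2 change of the list was 0.19, beside 0.25 for all genes tested. Its summed level was 1614 ± 18.5 FPKM for WT and 1521 ± 24.9 FPKM for the mutant (SD, n = 3). The level of FvH4_3g20030 alone was 34.5 to 35.7 times that sum in the WT libraries and 68.2 to 78.5 times in the mutant libraries.

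By the mean over both genotypes, the most abundant members of the list were zinc transporter 4 (FvH4_2g31850), at 205 ± 7.76 (WT) and 305 ± 3.80 (mutant) FPKM (SD, n = 3; limma adjusted p = 6.17e-07), and the metal-nicotianamine transporter YSL7 (FvH4_5g18420), at 169 ± 5.92 and 112 ± 5.95 (limma adjusted p = 3.27e-06). The mitochondrial manganese superoxide dismutase (FvH4_7g25730), which detoxifies superoxide, had 134 ± 4.42 and 138 ± 7.06 FPKM and did not pass (limma adjusted p = 0.497). The copper-zinc superoxide dismutase FvH4_6g04231 fell from 119 ± 2.86 to 84.3 ± 12.5 FPKM (limma adjusted p = 0.000585). The heavy metal-associated isoprenylated plant protein 26 gene FvH4_2g01160 had 101 ± 6.62 and 98.4 ± 7.44 FPKM and did not pass (limma adjusted p = 0.657). These last genes without a call, FvH4_7g25730 and FvH4_2g01160, were both called lower after the median rescaling.

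The members named for the greatest change by ratio were others. The zinc transporter 8-like gene FvH4_3g12891 had listed values of 0.09, 0 and 0 FPKM for WT, and for the mutant of 14.6, 13.4 and 14.5 FPKM. Zinc transporter 1-like (FvH4_3g12900) rose from 6.56 ± 1.13 to 52.0 ± 2.94 FPKM, and vacuolar iron transporter homolog 2-like (FvH4_2g13960) from 0.770 ± 0.350 to 16.2 ± 0.679 FPKM. Ferric reduction oxidase 4-like (FvH4_7g30120), of a family that reduces iron for uptake, rose from 0.227 ± 0.220 to 5.92 ± 0.349 FPKM. Of these 4 rises, FvH4_3g12900 alone averaged more than 1 FPKM in WT, and the others passed the filter only through the mutant. Among the 4 named for the greatest fall, ferritin-3 (FvH4_6g10770), a plastid iron store, went from 141 ± 7.97 to 8.58 ± 1.37 FPKM (log2 change -3.90 ± 0.10 SE, limma adjusted p = 3.74e-10). The metal-nicotianamine transporters YSL1 (FvH4_5g10970) and YSL6 (FvH4_6g53820) fell from 59.1 ± 3.77 to 10.9 ± 1.45 FPKM and from 119 ± 2.97 to 24.2 ± 1.86 FPKM, and metal tolerance protein 10 (FvH4_3g14550) from 9.09 ± 0.262 to 2.44 ± 0.452 FPKM (SD, n = 3).

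**Figure D4:**
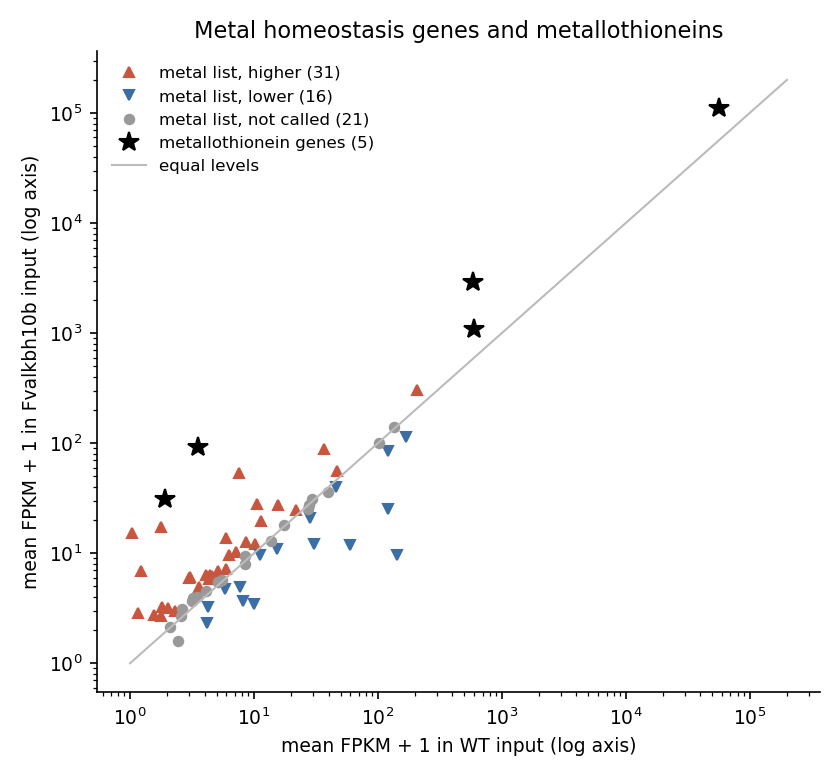
Mean input FPKM + 1 of 3 WT libraries (horizontal, log axis) against that of 3 Fvalkbh10b libraries (vertical, log axis) for 68 metal homeostasis genes and the 5 metallothionein genes (stars); triangles mark genes called by limma at adjusted p under 0.05, circles those not called. The stars all lie above the line of equal levels, while the list has 31 genes called higher and 16 called lower.

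Genes whose pattern over the 6 input libraries was most like that of FvH4_3g20030 were found by Pearson's r of log2(FPKM + 1). The r is a description over 6 libraries that fall into the 2 genotypes, so a gene that differs by genotype in the same direction can score high on that account. It also depends on the differences among libraries of the same genotype. Of 15570 genes, 477 (3.06%) had an r of at least 0.99. The 5 highest were an aminoacyltransferase E1 ubiquitin-activating enzyme gene (FvH4_5g03910), a 17.8 kDa class I heat shock protein-like gene (FvH4_7g23650), the E3 ubiquitin-protein ligase listerin gene (FvH4_3g39950), an adenine phosphoribosyltransferase 5-like gene (FvH4_2g28940) and the protein RIK gene (FvH4_6g46910), each with an r that rounds to 0.999. Among genes that averaged 100 FPKM or more, FvH4_5g03910 was followed by a RING finger and CHY zinc finger gene (FvH4_2g30250, r = 0.999), MET1 (FvH4_6g13710, r = 0.998), a hypothetical protein gene (FvH4_7g05820, r = 0.998) and the photosystem II 10 kDa polypeptide gene (FvH4_3g16050, r = 0.997). MET1 ranked 22 of 15570 genes. The other metallothionein genes ranked lower, FvH4_3g36020 at 897 (r = 0.986), FvH4_3g36040 at 1019 (r = 0.986) and FvH4_3g36030 at 3372 (r = 0.957).

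The nearest listed genes on each side of FvH4_3g20030 had very low input levels. The gene before it, a probable ubiquitin-conjugating enzyme E2 26 gene (FvH4_3g20020), ends 4993 bases away and had 0.19, 0.25 and 0.19 FPKM in WT and 0.09, 0.13 and 0.18 FPKM in the mutant. The gene after it, the uncharacterized FvH4_3g20050, starts 9289 bases away and had 0.17, 0.03 and 0.16 FPKM in WT and 0.15, 0.13 and 0.02 FPKM in the mutant. Both are on the minus strand, opposite to FvH4_3g20030. Of these 3 adjacent genes of the table, FvH4_3g20030 alone was above 1 FPKM. Both neighbours had listed m6A peaks all the same. FvH4_3g20020 had 1 in WT and 0 in the mutant, and FvH4_3g20050 had 2 in WT, 4 in the mutant and 2 differential entries. With depth unknown, enrichment over so low an input is uncertain, and no difference between genotypes is read from these counts.

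No m6A peak was listed at FvH4_3g20030 in either genotype. The WT list holds 23966 peaks over 14032 genes and the mutant list 24868 over 14758, of which 0 were assigned to this gene, overlapped its span on either strand or lay within 5000 bases of it. The table of 8889 differential peaks, of which 70.6% have an adjusted p under 0.05 in the authors' deposited table, holds 0 entries there too. Lists of called peaks give no value for a gene without a peak, so the level of m6A on this transcript was not measured here, and a gene with no listed peak is not shown to lack the mark.

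Listed peaks were less common in genes with a span of up to 1000 bases, such as FvH4_3g20030, than in longer genes of the same level. Levels here are means over all 6 libraries. Of the 20 genes that averaged 1000 FPKM or more, which include FvH4_3g20030, 11 had a peak in the WT list and 7 in the mutant list, or 55.0% and 35.0%. Several of the 20 were far below 1000 FPKM in the mutant, so the mutant share is not one of genes abundant in the mutant. Of these, FvH4_7g18570, FvH4_4g32700 and FvH4_1g09300 have no mutant peak, while pectate lyase 8 (FvH4_4g05760) has 1 at 95.9 FPKM in the mutant. EARLI 1 (FvH4_5g18321) has no mutant peak at 6088 FPKM in the mutant. Of the 9 genes of this class with a span of up to 1000 bases, 33.3% had a WT peak and 6 had no peak in either list. Of its 11 longer genes, 72.7% had a WT peak and 54.5% a mutant peak. Among genes of 100 to 1000 FPKM with such a span, 38 of 75 had no peak in either list, and among those with a longer span 83 of 598; the latter had a WT peak in 82.1% of cases. These shares are descriptions of the lists, and the part of transcript length or abundance in peak calling was not tested.

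**Figure D5:**
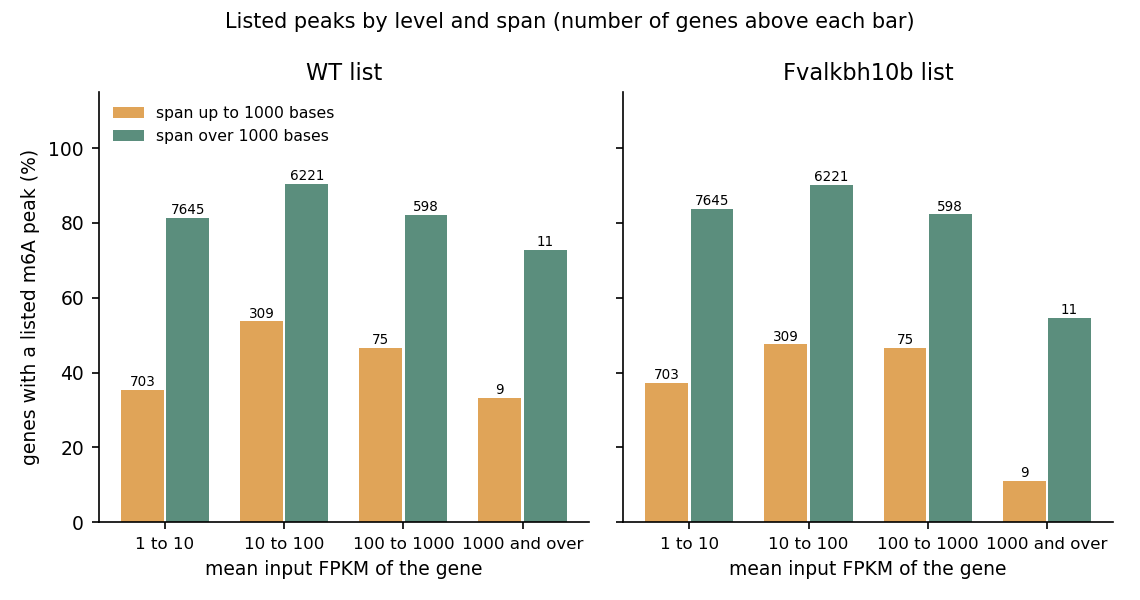
Percentage of genes with at least 1 listed m6A peak (vertical axis) by mean input FPKM of the gene (horizontal axis), for the WT list (left) and the Fvalkbh10b list (right); colours split genes by span and the number above each bar is its number of genes. The class of FvH4_3g20030, at least 1000 FPKM with a span of up to 1000 bases, holds 9 genes, of which 33.3% had a WT peak and 11.1% a Fvalkbh10b peak.

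Of the 10 next most abundant genes, 8 had a WT peak, 4 a mutant peak and 2 none in either list. The 2 without a peak were GAPC2 (FvH4_4g24420) and MET1 (FvH4_6g13710). EARLI 1 (FvH4_5g18321) had a single WT peak, listed as exonic, from 10540996 to 10541387 on chromosome 5, with an authors' log2 ratio of IP over input of 0.29, and none in the mutant list. The tumor protein homolog (FvH4_4g18300) had a 3' UTR peak of log2 ratio 1.59 in WT, and in the mutant peaks of 1.61 and 2.67. Thioredoxin H (FvH4_2g39210) had a log2 ratio of 1.51 in WT and 1.91 in the mutant, and in the authors' deposited table of differential peaks its log2 change is 0.45. The other differential entries among these 10 genes were smaller. They were 0.39 for the hypothetical protein gene (FvH4_6g41500), 0.26 for pectate lyase 8 (FvH4_4g05760) and 0.07 for the tumor protein homolog.

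Among the metallothionein genes, FvH4_3g36040 alone had listed peaks, although it stood at 2.53 FPKM in WT. Both lists gave it a pair of 3' UTR peaks on chromosome 3. The first ran from 30929338 to 30929829 in WT and from 30929363 to 30929829 in the mutant, with authors' log2 ratios of IP over input of 1.70 and 1.64. The second ran from 30929855 to 30930079 in WT and from 30929855 to 30930104 in the mutant, with log2 ratios of 1.79 and 1.73. The first peaks shared 467 bases and the second 225 bases, at least 90.0% of each peak. Neither had an entry among the differential peaks. FvH4_3g36040 is also the longest of the 5 genes, with a span of 1135 bases against 439 to 840 for the others. The lists hold 1 value per peak and genotype and none per library, so no test between genotypes was made.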

How the data were processed

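The authors deposited FPKM per gene for 6 input libraries, a peak list for each genotype and 1 table comparing peaks. FastQC, HISAT2 and StringTie are named in the submitters' processing notes without version or role (build, annotation and peak caller: not given in the sources used here). Log2 ratios and p-values of peaks and of gene changes are the authors', per the file headers. Peak starts count from 0 (3704 WT peaks start 1 base before their gene and 0 at its start) and were raised by 1.

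Steps of whole reads were looked for in low FPKM, and at most 2.58% of 813 ratios between 2 libraries fell in a window of 0.03 log2 units. The values are listed to 2 decimals, and rounding can blur such steps at low levels, so this check cannot decide. FPKM are not counts, and count models were not applied. Log2(FPKM + 1) of the 15571 genes that averaged 1 FPKM or more was fitted by limma 3.58.1 (R 4.3.3) with genotype as the only term and an intensity trend, and p-values were adjusted over all of them by Benjamini-Hochberg; the step was tested on simulated data. Fold changes on this scale understate those of low genes. For a single gene, an exact permutation test of 3 against 3 libraries cannot give a p below 0.1. FvH4_3g20030 was among the 15571 genes fitted and is included in the shares over all genes, but no test result of it is used here. The gene and the lists were chosen with earlier results of these data known. Named genes are the metallothioneins, the 10 next most abundant genes, the 5 most alike overall and the 5 most alike at 100 FPKM or more, the nearest gene on each side, and of the metal list the 5 most abundant and the 4 largest rises and falls past adjusted p 0.05 with at least 5 FPKM in one genotype. FvH4_2g24110 was added outside this rule, for its annotation. Alternatives were another pseudocount (0.1), no filter, 3 scalings, a replicate block and leaving out each library. Replicate numbers were not taken as pairs. No protein or promoter sequence of these genes was used here.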

Additional observations from a re-analysis of the deposited data

How the results depend on the processing

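The median rescaling shifted the median log2 change of all genes by -0.24, and quantile normalization by -0.24. Under these, 4800 and 4869 genes were higher in place of 7527, and 5011 and 4625 lower in place of 2978. Of the metal list, 19 and 16 were higher in place of 31. Rescaling to one sum without FvH4_3g20030 shifted the median by 0.04, with 7950 genes higher and 2810 lower. The log2 ratio of FvH4_3g20030 between genotypes was 0.96, against 0.68 after median rescaling, and 0.89 to 1.02 when 1 library was left out. Its WT share was 13.2% without the 10 next most abundant genes in the sum, in place of 12.2%. The log2 change of GAPC2 (FvH4_4g24420) turned to -0.15 after median rescaling. The 4 other metallothionein genes were called higher under every alternative run. Same-numbered libraries did not deviate together (correlations across genes of 0.04, -0.03 and 0.03), so the numbers were not taken as pairs; a replicate block gave 7469 higher and 2954 lower genes, 29 and 16 of the metal list, and all 4 metallothionein calls. At the authors' adjusted p under 0.01, 2616 differential peaks were higher and 962 lower, in place of 4325 and 1950. The unknown depth limits the low values, such as those of FvH4_3g36030 in WT.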

Other observations

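The concentration of the input RNA on few genes can be read with and without the metallothionein-like gene. Ranked from the most abundant gene down, 50% of the summed FPKM was reached with 428, 448 and 444 genes in the WT libraries and with 501, 463 and 431 genes in the mutant libraries. The ranges overlap. With FvH4_3g20030 left out of the sum, 656, 680 and 682 genes were needed in WT and 1048, 1021 and 1054 in the mutant, and the ranges no longer overlap. This was not tested, and the comparison was chosen after its values were seen.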
